A study of Zea mays with 45 samples.

Results

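The mature and elongation zones of starved maize leaves were compared on Affymetrix maize arrays. The comparison takes the 3 mature-zone arrays at 24 h of extended night minus the 3 elongation-zone arrays of the same time, 6 of the 42 arrays that hold values. All plants were of genotype SL (KWS Einbeck), under a light period of 14 h and a night of 10 h. Those of the 24 h group were kept in night conditions for another 24 h after a normal night. The mature zone is given by the labels without a distance, and the elongation zone is the stretch from 3 to 4.5 cm above the ligule. Each replicate was total RNA from a pool of 5 plants, so the errors given are those between pools of plants. The same 2 zones at the end of the night (3 arrays each) and at the end of the day (2 arrays each), without starvation, served to ask whether the zone difference changed in the dark. Values are log2 signals, and a difference of 1 stands for a doubling of the signal. A probe set was called when its adjusted p in limma was below 0.05.

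A grass leaf grows from its base. Cells divide next to the ligule, then stretch in the elongation zone, where walls, membranes and vacuoles expand, and finally mature into the green blade. In the maize blade C4 photosynthesis is split between mesophyll cells, which fix CO2 with phosphoenolpyruvate carboxylase, and bundle sheath cells, which hold Rubisco. The mature blade exports sucrose and the growing zones import it. In a prolonged night the supply of sugar runs out, and starvation genes such as asparagine synthetase are known to be induced in plants.

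The sums of mesophyll, bundle sheath and dividing-cell markers followed the zone labels. The summed signal of 5 mesophyll markers lay between 15.41 and 15.59 on the log2 scale on mature arrays, against 11.36 to 11.93 on elongation arrays. The 4 bundle sheath markers summed to 14.19 to 14.40 in the mature zone and 13.67 to 13.73 in the elongation zone; among them *sus1*, a sucrose synthase, was lower in the mature zone by 3.30. The 12 markers of dividing cells summed to 13.32 to 13.37 in the mature zone and 13.72 to 13.84 in the elongation zone, with 6 of the 12 and 0 of the 12 below the dim level. The dim level, 6.19, is the 95th percentile of the mean signals of 66 reporter probe sets, which have no maize target. Of 25 endosperm and embryo genes, 20 lay below it in the mature zone and 22 in the elongation zone. Sums of the 3 meristem markers overlapped, at 9.18 to 9.35 in the mature and 9.07 to 9.26 in the elongation zone. In each zone 2 of these 3 markers lay below the dim level. In these bulk samples fewer cells of a type and less RNA per cell cannot be told apart.

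The zones differed in most of what the array measured. At 24 h 14073 of 17555 probe sets (80.2%) were called, 8156 higher (46.5%) and 5917 lower (33.7%) in the mature zone. By at least 1, 2498 were called higher (14.2%) and 3266 lower (18.6%). The median over all probe sets was 0.18. Of the 66 reporter probe sets, 44 were also called higher in the mature zone and 0 lower, with a median of 0.285 and a largest difference of 0.881. Differences below 1 are therefore within the range of probe sets with no target, and counts by at least 1 are given beside each count of calls. The balance of directions followed the scaling: 58% of calls were higher in the mature zone as deposited, 67.8% after centring each array on its median and 41.9% after centring on the reporter probe sets, which moved the median of all probe sets to 0.426 and -0.066. Replicates correlated at 0.989 to 0.992 in the mature zone and 0.995 to 0.998 in the elongation zone.

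By the fitted difference the first of the named genes was *xet1*, a xyloglucan endotransglycosylase that cuts and rejoins wall polymers. It read 13.37, 12.99 and 13.15 in the mature zone, against 3.83, 3.85 and 3.79 in the elongation zone, a difference of 9.34 (SE 0.19, adjusted p = 5.8e-28). The chitinase gene *chn1* read 10.04, 10.56 and 10.31 in the mature zone and 3.39, 3.39 and 3.68 in the elongation zone (difference 6.82). The other genes of the highest 12 were LOC100125656 (7.24), the ferredoxin *fdx2* (7.11), *pdk1* (7.0), *pdrp1* (6.93), *Lhcb5-2* (6.65), *pep1* (6.40), *me3* (6.28), *rca1* (6.09), *Cab-m7* (6.07) and *sps1* (5.94). In 8 of these 12 the elongation-zone mean lay below the dim level, so the size of their difference and their order are uncertain. Set against the dim level in place of such a mean, the difference was at least 6.98 for *xet1*, 6.71 for *pdk1* and 4.11 for *chn1*, and the 12 genes lay between 4.11 and 6.98.

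Among the lowest genes was *fae1*, whose symbol is that of a fatty acid elongase. It read 4.82, 5.62 and 5.21 in the mature zone, against 11.46, 11.13 and 11.45 in the elongation zone, a difference of -6.13 (SE 0.29, adjusted p = 1.6e-18). The cellulose synthase gene *cesa2* read 5.38, 5.81 and 4.67 in the mature zone and 11.26, 11.10 and 11.22 in the elongation zone, a difference of -5.91 (SE 0.25). The remaining 10 of the lowest 12 were *gar2* (-5.86), *plt2* (-5.77), the tubulins *tub5* (-5.70) and *tub4* (-5.33), the aquaporin *nip1a* (-5.63), *prp2* (-5.55), *Bk2L3* (-5.27), the glutathione transferases *gst9* (-5.15) and *gst12* (-5.09), and *lim1* (-5.09). The mature-zone mean lay below the dim level in 4 of these 12, *fae1*, *cesa2*, *plt2* and *lim1*. Set against the dim level, *fae1* and *cesa2* differed by at least 5.16 and 5.0 in size, and their order is uncertain. The arrays of the zones did not overlap in these 24 genes, which were picked for their difference on the same arrays, nor did they in 81.1% of all probe sets. Mature replicate 2 read highest of the 3 mature arrays in 12 of the 12 lowest genes, for example 9.14 for *gar2* against 7.43 and 6.98 in its fellow mature arrays. It was likewise the mature array nearest the elongation zone for 45.6% of the 3266 probe sets called lower and 48.8% of the 2498 called higher by at least 1.

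**Figure D1:**
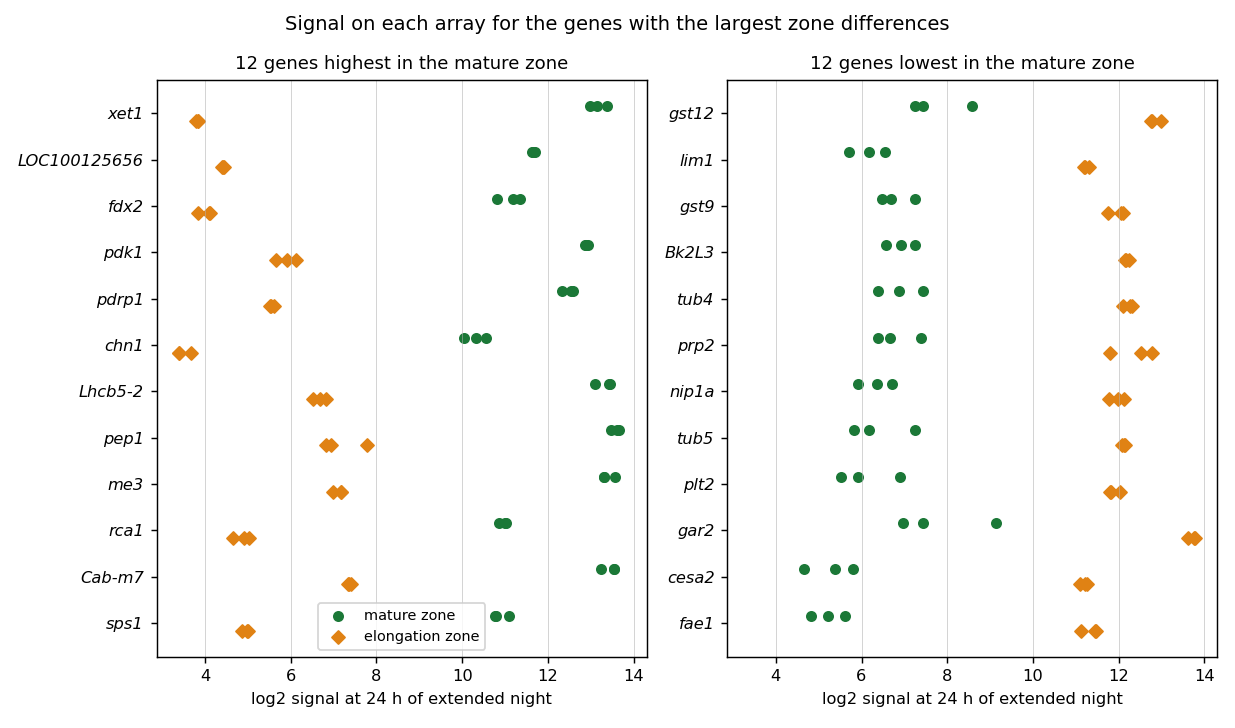
Log2 signal on each array at 24 h of extended night for the 12 genes highest and the 12 genes lowest in the mature zone (circles, 3 arrays) relative to the elongation zone (diamonds, 3 arrays). The zones stand apart in these 24 genes, which were picked for their difference, by 5.94 to 9.34 on the left and by 5.09 to 6.13 on the right.

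Genes of photosynthesis stayed far higher in the mature zone, although the leaves had by then been in darkness for 34 h, counting the normal night. All 9 genes of photosystems and light harvesting were called higher, all by at least 1, with a median difference of 4.11. *Lhcb5-2*, a light-harvesting protein gene, read 13.44, 13.10 and 13.42 in the mature zone and 6.68, 6.83 and 6.51 in the elongation zone. *Cab-m7*, a gene for a chlorophyll a/b-binding protein, read 13.53, 13.23 and 13.55 in the mature zone and 7.42, 7.36 and 7.33 in the elongation zone. The photosystem I gene *psad1* differed by 4.58 and the photoprotection gene *psbs1* by 4.11. Of 4 electron transport genes 1, *fdx2*, was called higher and 3 lower; of the 3, *fnr1* has probe sets called in opposite directions, *FDX6* differed by -0.65 and *fdx3* by -1.05.

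Of 7 C4 cycle genes 6 were called higher, 5 by at least 1, and 1 lower, with a median of 6.28. *pep1*, phosphoenolpyruvate carboxylase, read 13.66, 13.48 and 13.60 in the mature zone, against 7.78, 6.93 and 6.82 in the elongation zone. *pdk1*, pyruvate phosphate dikinase, its regulatory protein gene *pdrp1* and *me3*, the NADP-malic enzyme of the bundle sheath, differed by 6.28 to 7.0. *mdh6*, an NADP-malate dehydrogenase, differed by 2.93. The 3 Calvin cycle genes were all higher by at least 1: *rca1*, Rubisco activase, by 6.09, *gpa1*, plastid glyceraldehyde phosphate dehydrogenase, by 4.85, and *ssu1*, the Rubisco small subunit, by 1.67. Of 7 genes of chlorophyll, carotenoid and tetrapyrrole synthesis, 6 were called higher, 4 by at least 1, and 1 lower. Among them were *pds1*, phytoene desaturase (2.44), *dxs1*, the first enzyme of plastid isoprenoid synthesis (1.68), *por* (1.44) and *BCH2* (1.07).

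Sugar genes lay on both sides. Of 14 genes of sucrose synthesis, transport and cleavage, 9 were called higher, 7 by at least 1, and 4 lower, 3 by at least 1. The sucrose phosphate synthase gene *sps1* read 11.10, 10.77 and 10.78 in the mature zone, against 4.86, 4.98 and 5.01 in the elongation zone. *AGA3b*, an alkaline alpha-galactosidase, read 12.61, 12.76 and 12.58 in the mature zone and 8.50, 8.71 and 8.62 in the elongation zone (difference 4.04). The sucrose transporter *sut1* differed by 2.96, and the cell wall invertase *incw1* by 3.68. In contrast *ivr2*, the soluble acid invertase of expanding cells, read 5.46, 6.57 and 5.63 in the mature zone, against 10.42, 9.62 and 10.20 in the elongation zone (difference -4.20, SE 0.29). The sucrose synthases *sus1* and *sh1*, which cleave sucrose in sinks, differed by -3.30 and -1.53; for *sh1* probe sets were called in opposite directions.

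Starch synthesis genes went both ways, with 7 of 15 called higher (5 by at least 1) and 4 lower (3 by at least 1). The ADP-glucose pyrophosphorylase genes *Agp2* (-4.90) and *AGPLS3* (-3.31) were lower in the mature zone, while *GLG1* (2.82) and the debranching enzyme *zpu1* (2.16) were higher. Of 8 glycolysis genes 6 were called lower, 5 by at least 1, and 1 higher; the median was -1.29. The cytosolic glyceraldehyde phosphate dehydrogenases *gpc3* and *gpc4* differed by -4.49 and -3.53 and the enolase *eno2* by -1.47. The exception was *pfk1*, higher by 4.54.

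Genes of nitrogen recycling and starvation signalling were mostly called higher in the mature zone, though many by less than 1. For comparison, the 25 endosperm and embryo genes, mostly below the dim level, had 19 called higher, 0 by at least 1, and 1 lower. The 3 genes of amino acid breakdown and asparagine synthesis had 2 called higher, both by at least 1. *asn1*, asparagine synthetase, read 13.21, 13.12 and 13.33 in the mature zone and 10.41, 10.71 and 10.76 in the elongation zone (difference 2.60, SE 0.48). *gdh1*, glutamate dehydrogenase, was higher by 1.45, and *lkrsdh1*, which breaks down lysine, differed by 0.48 without being called, although it was called under 6 alternatives, among them array weights (0.608) and centring on array medians (0.721). *mas1*, malate synthase of the glyoxylate cycle, was higher by 1.61. These differences were not steady in the dark: for *asn1* it was 1.03 at 6 h and -0.32 at 14 h, neither called, and for *gdh1* it was -0.93 at 6 h and -0.59 at 14 h, both called. The elongation-zone mean of *asn1* was 13.18 ± 0.21 at 14 h and 10.63 ± 0.19 at 24 h, while the mature-zone mean was 12.86 ± 0.28 and 13.22 ± 0.11 (SD, n = 3 each). At the end of the night 1 mature array of *asn1* read 11.40 and the others 8.06 and 7.87.

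Of 11 SnRK1 genes and starvation regulators, 8 were called higher, 5 by at least 1, and 2 lower. *Scl1*, whose symbol is that of a SCARECROW-like regulator, read 10.47, 10.29 and 10.65 in the mature zone and 6.50, 7.04 and 6.98 in the elongation zone (difference 3.63). *SnrK1*, of the kinase family that signals low energy, differed by 2.81 and the bZIP factor gene *GBF1* by 2.38. *OBF1* was lower by 1.88. Of 12 genes of proteases and their inhibitors 10 were called higher, 6 by at least 1, and 1 lower. The proteinase inhibitor *cpi2* (1.87) and the cysteine protease *mir3* (LOC100037824, 1.77, and LOC541655, 1.59, read by probe sets of 1 cluster) were among the higher, and *cc7* was the lower one (-2.47). Of 12 genes of nitrate and ammonium assimilation, 8 were called higher, 4 by at least 1, and 2 lower. The nitrate reductase *NNR1* (3.28) and the glutamine synthetase *GLN6* (2.81) were higher, and *gln2* was lower (-1.67). The catalase *CAT3* was higher by 2.96, and the thiamine synthesis genes *thi1* and *thi2* were higher by 2.38 and 1.25.

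**Figure D2:**
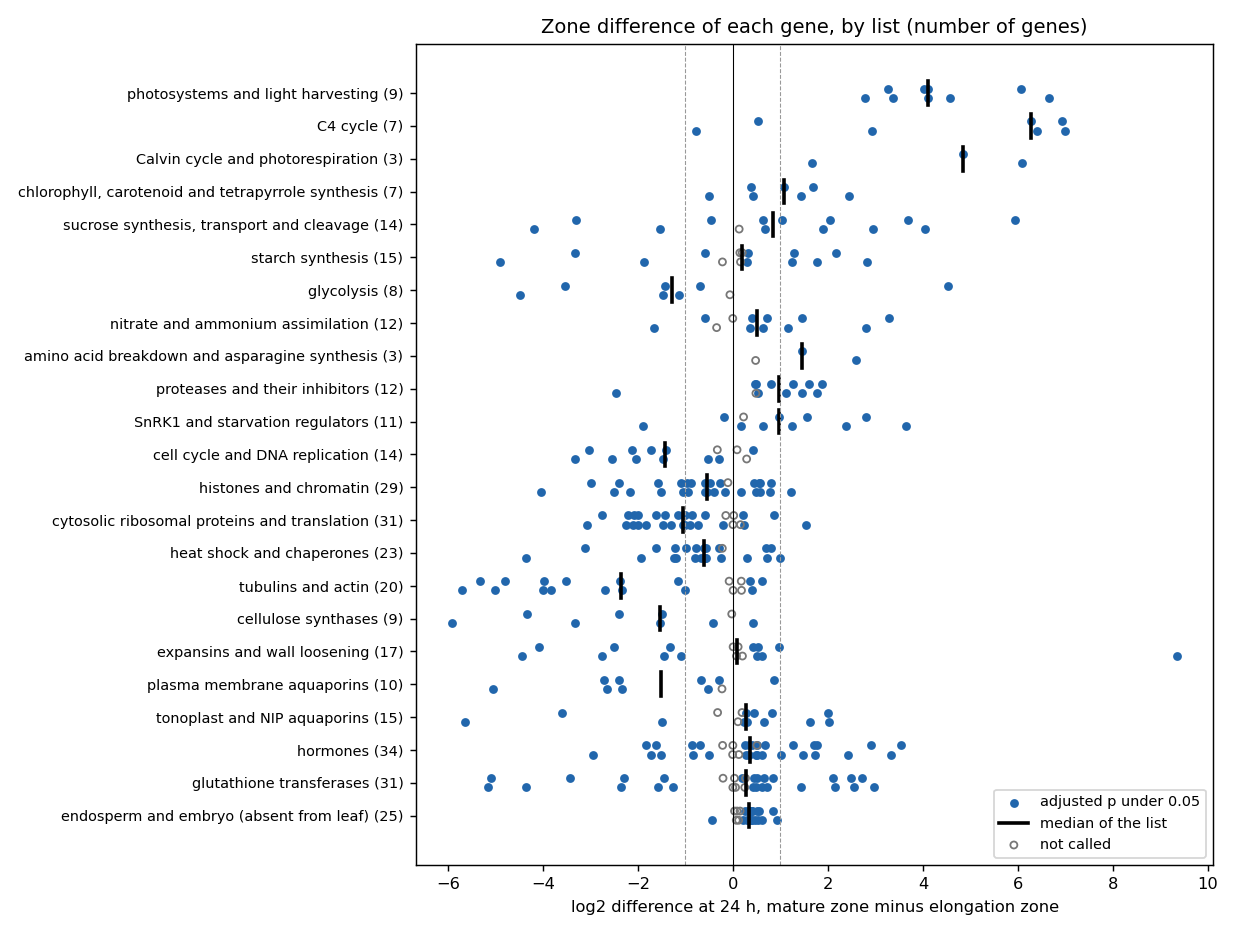
Log2 difference, mature zone minus elongation zone at 24 h, of each gene in 23 lists, with the median of each list (bar) and lines at 1 and -1. The photosystem, Calvin cycle and C4 lists have medians of 4.11 to 6.28, while tubulins and actin (-2.35), cellulose synthases (-1.53) and plasma membrane aquaporins (-1.51) lie on the other side. Endosperm and embryo genes, most of them below the dim level, have a median of 0.34.

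Most division and protein synthesis genes were lower. The 14 genes of the cell cycle and DNA replication had 10 called lower in the mature zone, 8 by at least 1, and 1 higher. *cyc3*, a cyclin gene, read 5.04, 5.56 and 4.71 in the mature zone and 8.31, 8.69 and 8.29 in the elongation zone (difference -3.33). *pcna2*, a replication sliding clamp, differed by -3.02, and the helicase subunits *MCM7* and *MCM6* by -2.54 and -2.11. *pcna1* was not called, at 8.50, 8.65 and 8.60 in the mature zone and 8.29, 8.32 and 8.26 in the elongation zone. These arrays do not overlap, and *pcna1* was called (difference 0.289, adjusted p = 0.012 in limma) when the spread came from these 6 arrays alone. Of 29 genes of histones and chromatin 19 were called lower, 9 by at least 1, and 9 higher, 1 by at least 1. *nfd101* (-4.05) and *hmg2* (-2.98) led the lower ones.

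Of 31 genes of cytosolic ribosomal proteins and translation 23 were called lower, 18 by at least 1, and 4 higher, 1 by at least 1, with a median of -1.05. The ribosomal protein genes *rpl30*, *rps6* and *RPL19* differed by -3.07, -2.25 and -2.20. Of 23 chaperone genes 17 were called lower, 7 by at least 1, and 5 higher, 0 by at least 1. The calreticulin *crt2* read 7.27, 8.16 and 7.39 in the mature zone and 12.15, 11.79 and 11.94 in the elongation zone (difference -4.36). The protein disulphide isomerase *pdi4* differed by -3.11.

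Most genes of wall building and the cytoskeleton were lower too. The 9 epidermis markers summed to 11.41 to 11.62 in the mature zone and 13.43 to 13.48 in the elongation zone, and the 6 secondary wall markers to 8.93 to 9.13 and 12.26 to 12.35, with 2 and 3 of the epidermis markers and 3 and 3 of the secondary wall markers below the dim level. Of the secondary wall markers 2 were called higher, 2 lower and 2 not, with a median of -0.04, and the gap in their sum came with *Bk2L3* alone (6.92 in the mature zone and 12.19 in the elongation zone). The part of both lists in these differences was not tested. Of 20 genes of tubulins and actin 13 were called lower, all 13 by at least 1, and 3 higher, none by at least 1. *tub5* read 6.16, 7.25 and 5.83 in the mature zone, against 12.12, 12.06 and 12.14 in the elongation zone. *tub6* and *tua5* differed by -5.01 and -4.79. Of 9 cellulose synthases 7 were called lower, 6 by at least 1, and 1 higher, and the median was -1.53. *cesa7* read 7.24, 7.29 and 6.89 in the mature zone and 11.55, 11.30 and 11.57 in the elongation zone (difference -4.33, SE 0.15). *cesa8* (-3.33) and *cesa6* (-2.40) followed. Of *cesa10* and *cesa11*, known for secondary walls, *cesa10* differed by -0.42 and *cesa11*, the 1 called higher, by 0.42. The call of *cesa11* was lost with reporter centring (0.175, adjusted p = 0.125 in limma). That of *cesa10* was lost with median centring (-0.175, adjusted p = 0.344 in limma). It was also lost without elongation replicate 1, elongation replicate 3 or mature replicate 3 (adjusted p of 0.0593 to 0.0889 in limma).

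The 17 expansins and wall-loosening genes were split, with 6 called higher and 7 lower, all 7 by at least 1. *xet1* was the 1 member higher by at least 1. The beta-expansins *expB8*, *expB4* and *expB3* differed by -4.44, -4.08 and -2.75; for *expB8* a second, dimmer probe set was called in the opposite direction. Of 6 lignin and phenylpropanoid genes 5 were called lower, 2 by at least 1, and 1 higher. These 2 were *CAD2*, cinnamyl alcohol dehydrogenase (-1.58), and *pal3*, phenylalanine ammonia-lyase (-1.55).

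Water channels of the plasma membrane were lower in the mature zone in 8 of 10 genes, 5 by at least 1, and higher in 1. *pip2d* read 4.88, 5.86 and 5.18 in the mature zone and 10.84, 9.49 and 10.74 in the elongation zone (difference -5.05). *pip1b* differed by -2.71. *pip2e* (-2.64) and *PIP1-3* (-2.39) were lower by their brightest probe sets, and each had a dim one called the other way. Of 15 tonoplast and NIP aquaporins 9 were called higher and 3 lower, with 3 each by at least 1. The silicon channels *Lsi1* (2.02) and *Lsi6* (2.0) were higher, and *nip1a* (-5.63) and *tip2a* (-3.60) lower. Of 10 genes of proton pumps and ion transport 6 were called higher, 5 by at least 1, and 3 lower. The potassium channel *kch4* was higher by 3.98, the phosphate transporter *pht1* by 2.88 and the proton pump *mha4* by 2.83.

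Of 34 hormone genes 20 were called higher, 10 by at least 1, and 9 lower, 5 by at least 1. *opr5*, of the oxophytodienoate reductase family of jasmonate synthesis, differed by 3.54, *acco20*, whose symbol is that of an ethylene-forming oxidase, by 3.33, and the cytokinin oxidase *cko2* by 2.90. *aic1* was lower by 2.96. Of 50 leaf pattern and meristem regulators 18 were called higher, 1 by at least 1, and 17 lower, 10 by at least 1. Both zones lay below the dim level in 27 of the 50. Over all probe sets 46.5% were called higher and 33.7% lower. *yabby15* read 5.25, 5.14 and 4.70 in the mature zone and 8.27, 8.78 and 8.48 in the elongation zone (difference -3.48). *rs2*, a repressor of knotted genes, differed by -2.62. *GRF8* differed by -2.61, with another, weaker probe set called higher. Of 31 glutathione transferases 16 were called higher, 7 by at least 1, and 9 lower, all 9 by at least 1. *gst18* (2.96) was the highest of them, and *gst9*, *gst12* and *gst11* (-4.36) the lowest.

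Most probe sets carry no gene name in the annotation used here. The 1452 with 1 gene (8.27%) stand for 1108 genes, of which 459 were called higher and 451 lower, 177 and 275 by at least 1. The highest unnamed probe set, Zm.3452.1.S1_at, read 13.74, 13.51 and 13.87 in the mature zone and 4.34, 4.42 and 4.09 in the elongation zone. The lowest, Zm.7164.1.A1_at, read 5.82, 6.33 and 5.59 in the mature zone and 12.45, 12.40 and 12.61 in the elongation zone.

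The zone pattern at 24 h was compared with the same zones before starvation, on arrays that share none with it. Calls were made for 13381 probe sets (76.2%) at the end of the night, 12650 (72.1%) at the end of the day, 13724 (78.2%) at 6 h and 14155 (80.6%) at 14 h. Of the probe sets called at 24 h, 72.9% were called in the same direction at the end of the night and 68.7% at the end of the day; these were 76.6% and 76.5% of those called at the earlier time. Opposite calls were 1148 and 1140. Over the probe sets the differences correlated at 0.817 with the end of the night and 0.799 with the end of the day. At 6 h and 14 h of extended night, 78.8% and 85.5% of the 24 h calls had the same direction.

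The change of the zone difference was tested directly, as the difference at 24 h minus that at the end of the night, which falls at the same clock hour. It was called for 8546 probe sets (48.7%), 4687 upward (26.7%) and 3859 downward (22%), with 1463 (8.33%) and 1797 (10.2%) by at least 1. Against the end of the day it was called for 8205 (46.7%), 4500 upward (25.6%) and 3705 downward (21.1%). Of the reporter probe sets 5 and 7 were called upward and 1 and 0 downward. The shift is the change in the mature zone minus that in the elongation zone. Shares among the shifts thus exceed those over all probe sets by construction. Of the 1797 downward shifts, 72.0% had the mature zone itself lower by at least 1 at 24 h than at the end of the night (10% of all probe sets). In 10.7% the elongation zone was higher by at least 1 (3.83% of all). Of the 1463 upward shifts, 64.0% had the mature zone higher by at least 1 (9.71% of all) and 11.8% the elongation zone lower by at least 1 (2.82% of all). Among the end-of-night arrays mature replicate 3 deviated, with a correlation down to 0.963 with its fellow replicates and an array weight of 0.0983. Without it 8769 probe sets were called, and the shares above include it.

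Cellulose synthases and plasma membrane aquaporins had most of their shifts against the end of the night called downward. For cellulose synthases 8 of 9 shifts were called downward against the end of the night, with and without the deviating array. Markers of secondary wall vessel cells, 3 of which are cellulose synthases, moved with them: 5 of 6 shifted downward by at least 1 against the end of the night (median -1.48) and 5 of 6 against the end of the day (median -2.55), and their part was not tested. The zone difference of *cesa7* was -4.33 at 24 h, -0.12 at the end of the night and 1.30 at the end of the day. Its mature-zone mean was 7.14 ± 0.22 at 24 h and 10.96 ± 0.30 at the end of the night, while its elongation-zone mean was 11.47 ± 0.15 and 11.08 ± 0.14 (SD, n = 3 each). The shift was -4.21 (SE 0.21, adjusted p = 8.8e-17), and -4.29 without the deviating array. *cesa2* shifted by -5.07 against the end of the day. Of the plasma membrane aquaporins 7 of 10 were called downward and 1 upward against the end of the night (median -1.122). Against the end of the day 5 of 10 were downward and 1 upward (median -0.397). Of tubulins and actin 10 of 20 were downward against the end of the night (8 without the deviating array) and 1 upward. The lignin and phenylpropanoid list had 4 of 6 genes downward against the end of the night, all 4 by at least 1, and 2 upward (median -1.462). The lists of expansins and of tonoplast and NIP aquaporins were less one-sided against that time. Of 17 expansins and wall-loosening genes 5 were downward and 3 upward, and of 15 tonoplast and NIP aquaporins 6 downward and 3 upward. *tub3* shifted by -4.17 against the end of the day. *pip1e* shifted by -3.95 against the end of the night but by -0.32, not called, against the end of the day; both zones lay below the dim level for it at 24 h. *ivr2* read 5.88 ± 0.60 at 24 h and 10.96 ± 0.34 at the end of the night in the mature zone, and 10.08 ± 0.41 and 11.27 ± 0.15 in the elongation zone.

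**Figure D3:**
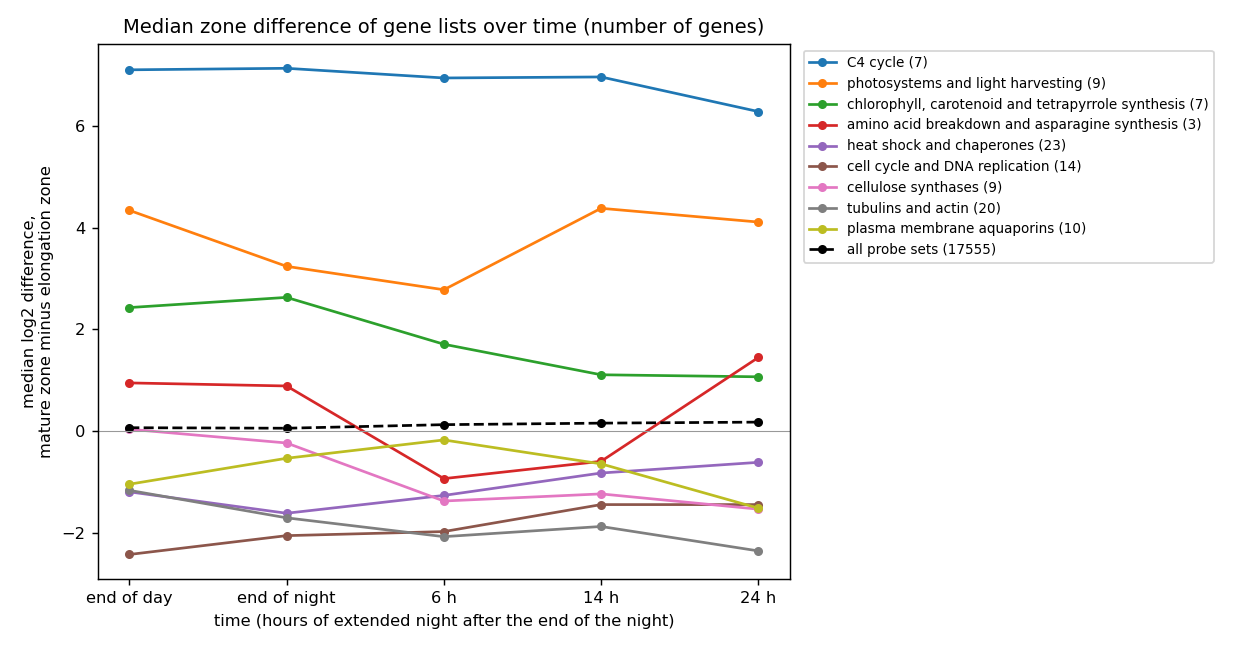
Median log2 difference, mature zone minus elongation zone, of 9 gene lists and of all 17555 probe sets (dashed) at the end of the day, the end of the night and 6, 14 and 24 h of extended night. Cellulose synthases lie at 0.04 at the end of the day and -1.53 at 24 h, cell cycle genes at -2.42 and -1.44, and C4 cycle genes at 7.10 and 6.28.

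Some photosynthesis genes narrowed their zone difference and others widened it. Of the C4 genes 6 of 7 shifted downward against the end of the night, 1 of them by at least 1, and all 3 Calvin cycle genes shifted downward. *rca1* had a mature-zone mean of 10.95 ± 0.09 at 24 h and 13.09 ± 0.06 at the end of the night, with elongation-zone means of 4.87 ± 0.19 and 5.02 ± 0.19. Of the 9 photosystem and light-harvesting genes 4 shifted upward, 1 of them by at least 1, and 0 downward against the end of the night, with a median shift of 0.45. Against the end of the day 3 shifted upward and 4 downward, with a median of -0.381. *Cab-m7* shifted by 3.01 (SE 0.29, adjusted p = 2.0e-10). Its mature-zone mean was 13.44 ± 0.18 at 24 h and 13.41 ± 0.04 at the end of the night, and its elongation-zone mean 7.37 ± 0.05 and 10.35 ± 0.29, so the shift lay in the elongation zone. The 7 genes of chlorophyll, carotenoid and tetrapyrrole synthesis had 5 shifts downward against the end of the night, all 5 by at least 1, and 0 upward. *psy2*, a phytoene synthase gene, shifted by -4.02, with a mature-zone mean of 5.30 ± 0.40 at 24 h and 9.78 ± 0.24 at the end of the night.

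The lists of division genes had more shifts called upward than downward. The dividing-cell markers share genes such as *pcna1* with the cell cycle list, so these counts are not separate. Of the 12 dividing-cell markers 10 shifted upward against the end of the day and 0 downward. Against the end of the night 4 of 12 did, and 10 of 12 without the deviating array. For the 14 cell cycle genes the upward calls were 3 and, without that array, 8, with 2 downward in both, and for the 29 histone and chromatin genes 14 and 22, with 2 downward in both. In the deviating array *pcna1* read 9.68, against 7.03 and 7.52 in its fellow arrays, and *MCM6* 8.30 against 5.07 and 5.12. *pcna1* shifted by 2.46 with it and 3.26 without it, and *MCM6* by 0.93, not called, and by 2.0. *pcna1* had elongation-zone means of 8.29 ± 0.03 at 24 h and 10.24 ± 0.19 at the end of the night. *hon101*, a linker histone gene, shifted by 3.12 against the end of the day; it differed between zones by 0.79 at 24 h, -0.86 at the end of the night and -2.33 at the end of the day. Of the 23 chaperone genes 14 shifted upward against the end of the night, 8 by at least 1, and 2 downward. *pdi* shifted by 3.06 (3.56 without the deviating array).

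Against the end of the night 272 of the 1108 genes were called upward, 79 by at least 1, and 335 downward, 207 by at least 1. Over all probe sets the shares were 26.7% upward (8.33% by at least 1) and 22% downward (10.2% by at least 1). Of the 11 SnRK1 genes and starvation regulators 4 shifted upward and 2 downward against the end of the night, and *asn1* shifted by 0.16, not called. *Scl1* shifted by 2.68 against the end of the night (2.36 without the deviating array) and 3.47 against the end of the day; its means at 24 h and the end of the night were 10.47 ± 0.18 and 6.24 ± 0.75 in the mature zone and 6.84 ± 0.30 and 5.29 ± 0.16 in the elongation zone. *AGA3b* shifted by 4.17 against the end of the day, when it differed by -0.13 between zones. *chn1*, *xet1* and *glu1*, a beta-glucosidase gene, shifted by 3.70, 3.51 and 3.41 against the end of the day. *ptk1* shifted by 2.97 against the end of the night and 4.42 against the end of the day. *mas1* shifted by 1.27 against the end of the night, and by 0.95, not called, without the deviating array. *rpo2* shifted by 3.49 against the end of the night and by -0.69 against the end of the day, its mature-zone mean being 9.27 at 24 h, 6.11 at the end of the night and 10.25 at the end of the day.

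**Figure D4:**
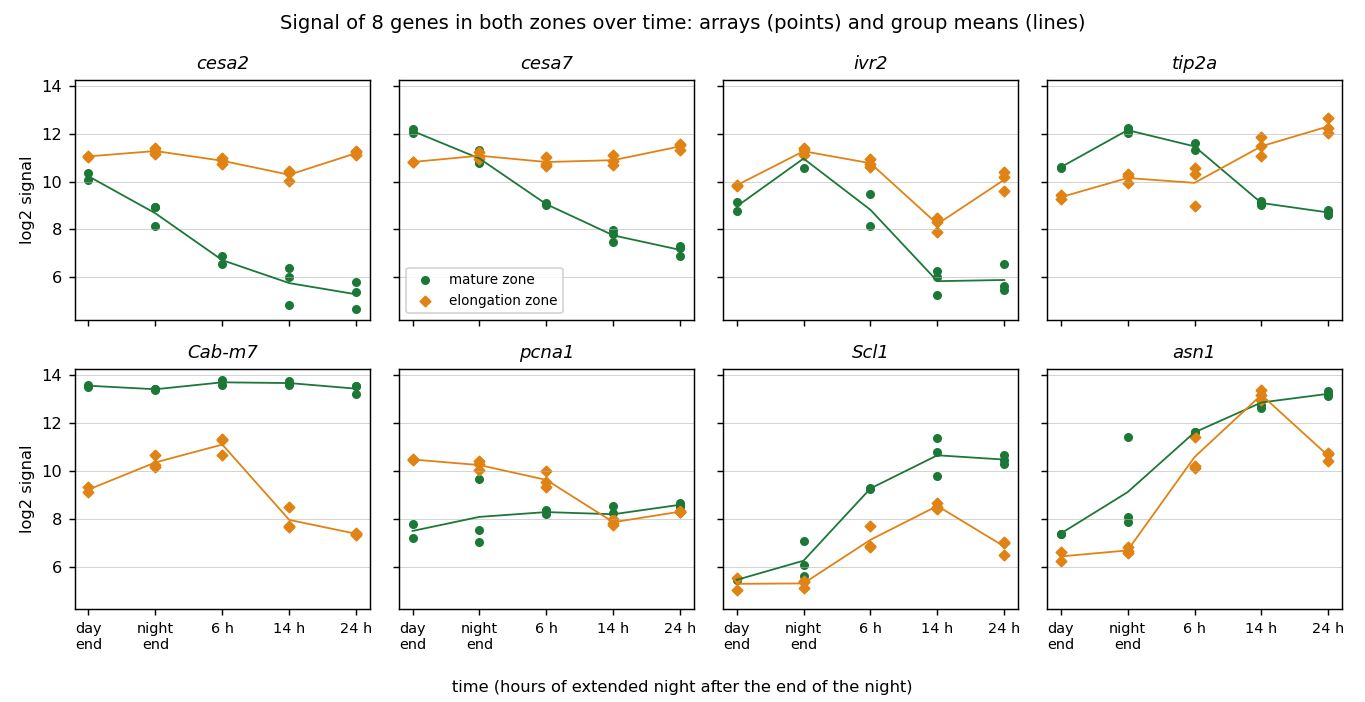
Log2 signal of 8 genes in the mature zone (circles) and the elongation zone (diamonds) at the end of the day, the end of the night and 6, 14 and 24 h of extended night, with lines through group means. In the mature zone *cesa2*, *cesa7* and *ivr2* are lower at 24 h than at the end of the night, in the elongation zone *Cab-m7* and *pcna1* are, and *tip2a* lies at 8.71 and 12.31 in the mature and elongation zones at 24 h.

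At the end of the night 38.7% of probe sets were called higher and 37.6% lower in the mature zone, and at the end of the day 36.1% and 35.9%. For 76 genes the direction of the call at 24 h was opposite to that at the end of the night, for 72 it was opposite to that at the end of the day, and for 54 to both. A difference of at least 1, called higher in the mature zone, was found for 15.7% of probe sets at the end of the night and 15.3% at the end of the day. With a difference of at least 1 at both times there were 7 against the end of the night and 13 against the end of the day, and all 13 were lower in the mature zone at 24 h. Over all probe sets, opposite calls of at least 1 at both times numbered 16 with the mature zone higher at 24 h and 62 with it lower, against the end of the night, and 16 and 90 against the end of the day. Opposite calls of any size leaned the other way, with 663 higher and 485 lower against the end of the night and 623 and 517 against the end of the day. Reporter probe sets moved in that direction too, with medians of 0.285 at 24 h, 0.199 at the end of the night and 0.2 at the end of the day. The part of the scaling in this lean was not tested. *tip2a*, a tonoplast aquaporin gene, read 8.79, 8.60 and 8.73 in the mature zone, against 12.22, 12.03 and 12.68 in the elongation zone. At the end of the night the means were 12.15 ± 0.11 in the mature zone and 10.15 ± 0.20 in the elongation zone, and the shift was -5.60 (SE 0.50, adjusted p = 4.2e-11). At 24 h the division zone, at the leaf base, averaged 8.65 for *tip2a*. *an1*, the first committed enzyme of gibberellin synthesis, read 5.28, 5.11 and 4.92 in the mature zone and 7.02, 6.38 and 6.79 in the elongation zone; it was higher in the mature zone by 1.98 at the end of the night and 2.30 at the end of the day.

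The other genes of the 13 have varied roles. The plastid ribosomal protein genes *lem1* and *prpl35-1* differed by -1.20 and -1.03 at 24 h and by 1.35 and 1.44 at the end of the night. The plastid sigma factor *sig2A* differed by -1.08 at 24 h and 1.55 at the end of the day. The tryptophan synthase genes *orp1* and *orp2* differed by -1.41 and -2.05 at 24 h and by 1.20 and 1.21 at the end of the day. The beta-glucosidase *glu2* differed by -2.11 at 24 h and 1.87 at the end of the night, and the beta-expansin *expB6* by -1.33 and 2.61, with both 24 h means below the dim level. The plastid fatty acid desaturase *fad7* (-2.53 at 24 h, 1.61 at the end of the day), *les22*, of tetrapyrrole synthesis (-1.08 and 1.44), *EXPA5* (-1.45 and 1.85) and *cesa7* completed the group. LOC541918 and LOC541622 had no name in the gene table; both shifted downward against the end of the night, by -4.50 and -4.43. LOC541622 averaged 9.06 ± 0.32 in the mature zone at 24 h and 13.21 ± 0.10 at the end of the night, against 4.21 ± 0.23 and 3.93 ± 0.12 in the elongation zone.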

How the data were processed

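Total RNA of pooled leaf zones was hybridised to Affymetrix maize arrays. The deposited values are log2 intensities made by the authors with RMA, per the submitters' processing notes. Its version was not given in the sources used here. Of 45 arrays in the labels 42 hold values; 113 control and 66 reporter probe sets were left out and 17555 tested. Means of 15 groups were fitted with lmFit and eBayes (limma 3.58.1, R 4.3.3; 27 residual degrees of freedom, 1 spread per probe set shared by all groups), with Benjamini-Hochberg adjustment within each comparison. The median SE of the zone difference was 0.117, and the number of arrays limits precision; array weights ran from 0.455 to 0.823 in the mature and 0.493 to 2.79 in the elongation zone at 24 h. In simulated data 50 of 17555 probe sets were given each difference, and the zones were equal in all unchanged ones. The fit found 54%, 94% and 98% of zone differences of 0.5, 1 and 2. Most probe sets differed in the real data, so these rates may not carry over.

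The annotation names 1 gene for 1452 probe sets; 1060 of 1108 genes matched RefSeq genes of Zm-B73-REFERENCE-NAM-5.0, whose coordinates were not used. The brightest probe set stood for a gene, and 44 genes have probe sets called in opposite directions. Lists were matched by symbol and 56 matches were taken out by name alone. Members, lists and rules were chosen with earlier results of these data known. Named were the 12 highest and 12 lowest genes, up to 4 genes per list by size of difference, the 8 highest and 8 lowest shifts against each earlier time, and genes called in opposite directions at 2 times (here those past 1 at both). Genes named besides these to round off a list (*sut1*, *sh1*, *gst18*) were chosen after their values were seen. Alternatives were other scalings, array weights, a filter on dim probe sets, fits of the compared groups alone, robust moderation, a replicate block and leaving out each array.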

Additional observations from a re-analysis of the deposited data

Results flagged for a closer look

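The zone difference changed between times by the test of the shift itself for 8546 probe sets against the end of the night and 8205 against the end of the day. Among named genes the upward shifts against the end of the night were *rpo2* 3.49, *pdi* 3.06, *Cab-m7* 3.01, *ptk1* 2.97, *Scl1* 2.68, *pcna1* 2.46, LOC542628 2.33 and *rpot1* 2.33. The downward ones were *tip2a* -5.60, LOC541918 -4.50, LOC541622 -4.43, *cesa7* -4.21, *psy2* -4.02, *glu2* -3.98, *pip1e* -3.95 and *expB6* -3.94. Genes that turned direction by at least 1 at both times also shifted downward, namely *an1* by -3.60, *orp1* by -2.97, *lem1* by -2.55 and *prpl35-1* by -2.48. Without mature replicate 3 of the end of the night these 20 shifts ran from -5.67 to 3.68 and all were called.

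Against the end of the day, with 2 arrays a zone and another clock hour, the upward shifts were *ptk1* 4.42, *AGA3b* 4.17, *chn1* 3.70, *xet1* 3.51, *Scl1* 3.47, *glu1* 3.41, *pcna1* 3.28 and *hon101* 3.12. The downward ones were *cesa7* -5.63, LOC541918 -5.21, *cesa2* -5.07, *tip2a* -4.85, *expB6* -4.61, *expa1* -4.18, *tub3* -4.17 and LOC541622 -4.14. The turned genes *fad7*, *EXPA5*, *orp2*, *sig2A* and *les22* shifted by -4.14, -3.30, -3.26, -2.63 and -2.53.

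Signal outside the maize genes also differed: 44 reporters of 66 read higher on the mature than on the elongation arrays at 24 h, by the same test.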

How the results depend on the processing

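Over the alternatives the zone difference at 24 h was called for 10377 to 15126 probe sets, against 14073, and for 13390 to 13641 without 1 array. The shift was called for 7182 to 8988 probe sets against the end of the night (7990 to 8769 without 1 array) and for 6947 to 8923 against the end of the day (7236 to 8011 without 1 array). These counts and those by at least 1 stayed within 1.5 times. Of 220 gene results tried, 21 lost or gained their call under some alternative and 0 reversed. Among them *lkrsdh1* gained a call under 6 alternatives. *cesa10*, *pdi*, *psy2* and *rpo2* lost the call at 24 h, with differences of -0.175, -0.321, -0.256 and 0.22, after a recentring of the arrays. Reporter centring also moved the medians of expansins, leaf pattern genes and starch synthesis genes to -0.174, -0.148 and -0.053, against 0.08, 0.10 and 0.20, and made 44% and 46.8% of the shifts called against the end of the night and the end of the day upward, against 54.8% for both. Without dim probe sets 46.5% of 24 h calls were higher. Same-numbered 24 h arrays deviated together at correlations of -0.0113, 0.0846 and 0.0963. Correlations this weak, from 3 arrays a zone, cannot decide whether the numbers pair the samples. The replicate block gave 14152, 8700 and 8360 calls. Mature replicate 1 correlated best with elongation replicate 3, and mature replicates 2 and 3 with their own numbers. A block with the end of the day crossed, added after seeing the data, gave 8371. Centring on reporter probe sets was also added then. Signals near the dim level limit differences of weak genes.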
